A study of Mus musculus with 10 samples.

Results

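Oxidative phosphorylation is the set of mitochondrial reactions that makes most of a cell's ATP. The 135 genes described here were chosen by symbol. They are the mitochondrially encoded genes (mt-), the nuclear genes of complex I (Nduf), complex II (Sdha to Sdhd), complex III (Uqcr), complex IV (Cox4 to Cox8) and ATP synthase, or complex V (Atp5), with symbols holding "-ps" left out. They make up 135 of the 55401 genes in the count table. Of these, 37 lie on the mitochondrial genome (13 mRNAs, 2 rRNAs and 22 tRNAs) and 98 in the nucleus.

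Liver RNA was measured by polyA RNA-seq in 10 female mouse fetuses at E18.5, shortly before birth. In 5 of them (Mir483Pat-KO) the microRNA gene Mir483, which lies inside the growth factor gene Igf2, carried a constitutive deletion inherited from the father, and 5 wild-type (WT) littermates were the controls. The mouse line was made from embryonic stem cells in which Cre had removed Mir483, and was kept on a C57BL/6J background. Whole liver was used, so fewer cells of a type and less RNA per cell cannot be told apart in any value below. Libraries held 10831350 to 14765880 counts, where 3 counts equal 0.197 to 0.271 CPM (counts scaled to a common library size). Mir483 had 10 to 22 counts in each WT library and 0 in each Mir483Pat-KO library.

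Electrons from food enter the respiratory chain at complex I and complex II, pass through complex III and cytochrome c to complex IV, and reduce oxygen to water there. Complexes I, III and IV pump protons across the inner mitochondrial membrane, and complex V uses the gradient to make ATP. The mitochondrial genome encodes some of the subunits of complexes I, III, IV and V, and the nucleus encodes the rest and all of complex II, so both genomes must supply parts. In the fetal liver, hepatocytes share the organ with blood-forming cells, mainly erythroid ones.

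No gene of oxidative phosphorylation passed the test between the genotypes. At an adjusted p under 0.05 (edgeR's quasi-likelihood test, Benjamini-Hochberg adjustment over 14098 genes), 0 of the 97 genes abundant enough to be tested differed, whereas 5.19% of all genes tested did. With a fold change over 1.5 as well, the count was again 0, against 1.23% of all genes. The limma-voom fit also called 0, against 5.34% of all genes, and DESeq2 called 2, Atp5a1 and Sdha, both lower in Mir483Pat-KO, where it called 4.32% of all genes lower. With the range of the libraries' identification numbers as a covariate, 9 nuclear genes were called, all lower in Mir483Pat-KO, or 9.28% of the 97, beside 3.85% of all genes called lower in that fit. At an unadjusted p under 0.05, 14 of the 97 genes were lower (10.7% of all genes were) and 0 were higher (11.5% of all genes were). Groups did not overlap for 2 genes, Atp5a1 and Ndufv3, both lower (3.26% of all genes), and for 0 that were higher (3.34% of all genes).

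The size of difference that these data leave room for was small for the nuclear genes. The 95% interval of the fold change lay within 1.5-fold either way for 85 of the 88 nuclear encoded genes tested, and for 74.8% of all genes. The same held for only 3 of the 9 mitochondrially encoded genes tested, mt-Nd4, mt-Nd5 and mt-Cytb. The median log2 fold change, Mir483Pat-KO over WT, was −0.07 over the 88 nuclear genes and −0.03 over the 7 tested mitochondrial mRNAs, beside 0.0042 over all genes. Below 0 were 61 of the 88 nuclear genes (69.3%) and 49.1% of all genes.

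**Figure D1:**
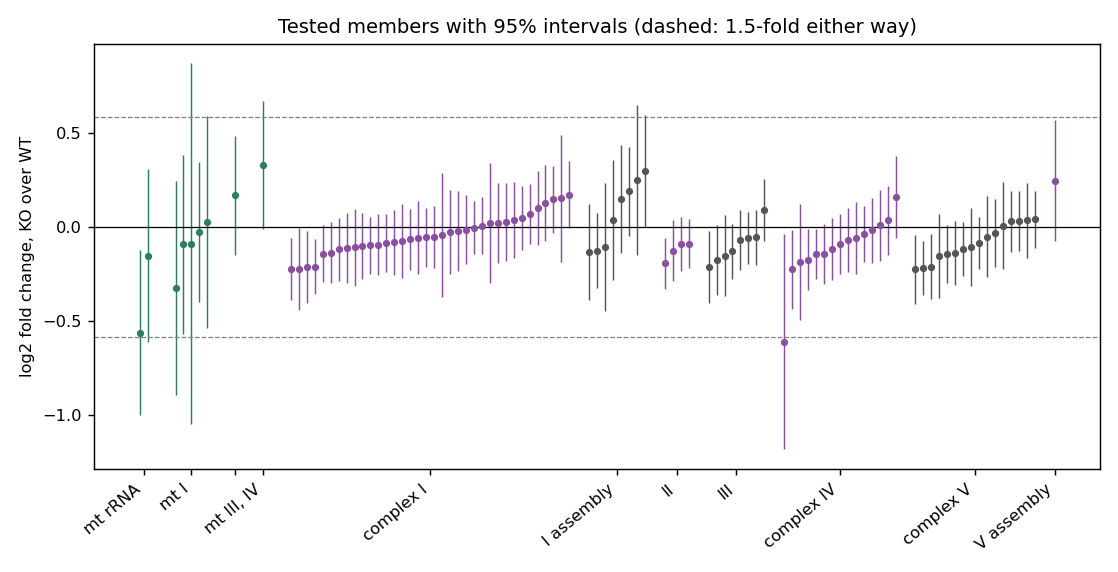
The log2 fold change (Mir483Pat-KO over WT, vertical axis) of each of the 97 genes tested, with its 95% interval, ordered within complexes; green marks mitochondrially encoded genes, and purple and grey alternate between the nuclear groups. All but 9 intervals lie inside the dashed lines at 1.5-fold, and the widest ones belong to mt-Nd6 and Cox7a1.

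Which mitochondrial mRNAs could be measured depended on the gene. Of the 13, 7 had from 2341 (mt-Nd6) to 983079 (mt-Co1) counts over the 10 libraries, and 6 had 10 or fewer. The latter were mt-Co2 (7 counts) and mt-Co3 (10 counts) of complex IV, mt-Atp6 (8 counts) and mt-Atp8 (1 count) of complex V, and mt-Nd3 (10 counts) and mt-Nd4l (0 counts) of complex I. A cell makes these mRNAs from the same long precursor as their abundant neighbours. The nuclear genome holds copies of mitochondrial DNA, and 5 of these 6 genes were almost wholly contained in one. On chromosome 1, 7 annotated pseudogenes lie side by side within 4663 bases (GRCm38, chr1:24611535-24616197, minus strand) and follow the mitochondrial order from mt-Co1 to mt-Nd4. Of all 50-base stretches of a transcript, the share that also occurs in another annotated transcript was 100% for mt-Co2, 99.9% for mt-Co3, 99.5% for mt-Atp6, 98.8% for mt-Nd4l and 98.0% for mt-Nd3. The reads were 50 bases from each end of a fragment.

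The sequences below show how close the copies are. A stretch of mt-Co2 (chrM:7323-7382, plus strand, coding exon) is set beside the same stretch of Gm28661 (chr1:24615196-24615255, minus strand). A stretch of mt-Co1 (chrM:6383-6442, plus strand, coding exon) is set beside Gm29216 (chr1:24616136-24616195, minus strand) and Gm13340 (chr2:22588533-22588592, minus strand). Capitals mark bases that differ from the mitochondrial gene. Sequences are from the GENCODE M21 transcripts of GRCm38.
mt-Co2: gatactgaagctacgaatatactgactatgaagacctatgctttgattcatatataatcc
Gm28661: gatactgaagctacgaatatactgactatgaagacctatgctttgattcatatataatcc
mt-Co1: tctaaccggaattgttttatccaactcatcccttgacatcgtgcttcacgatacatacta
Gm29216: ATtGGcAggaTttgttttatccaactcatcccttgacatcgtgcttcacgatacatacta
Gm13340: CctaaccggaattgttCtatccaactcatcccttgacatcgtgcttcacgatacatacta
The mt-Co2 stretch is the same in its copy, and Gm28661 matched mt-Co2 at all 681 aligned bases. The 6 bases in capitals in Gm29216 are all the differences over its 492 bases, and all sit at its start. Gm13340 differed from mt-Co1 at 37 of 1545 bases.

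The abundant mRNAs shared less with the nucleus. The share was 62.2% for mt-Nd4, 51.1% for mt-Co1, 8.19% for mt-Nd2, 7.61% for mt-Nd5 and 0% for mt-Nd1, mt-Nd6 and mt-Cytb. Among the 6 mRNAs with few counts, mt-Atp8 had 1 count and shared 0% with annotated transcripts. It lies between mt-Co2 and mt-Atp6 on the mitochondrial genome. In the chromosome 1 block the copies of both, Gm28661 and Gm10925, lie in the same order, and none of the 7 copies covers the bases between them. Those bases were not compared, so the 0% for mt-Atp8 covers annotated transcripts only. The copies themselves held few counts. For Gm28661, the copy of mt-Co2, the WT mean was 7.09 ± 3.67 CPM and the Mir483Pat-KO mean 9.11 ± 4.25 CPM (SD, n = 5 each). How reads that map to several places were counted is not given in the sources used here, and its part in the low counts was not tested. The 6 mRNAs are therefore not described further, and the level of mt-Co1 and mt-Nd4 may rest on part of their reads.

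**Figure D2:**
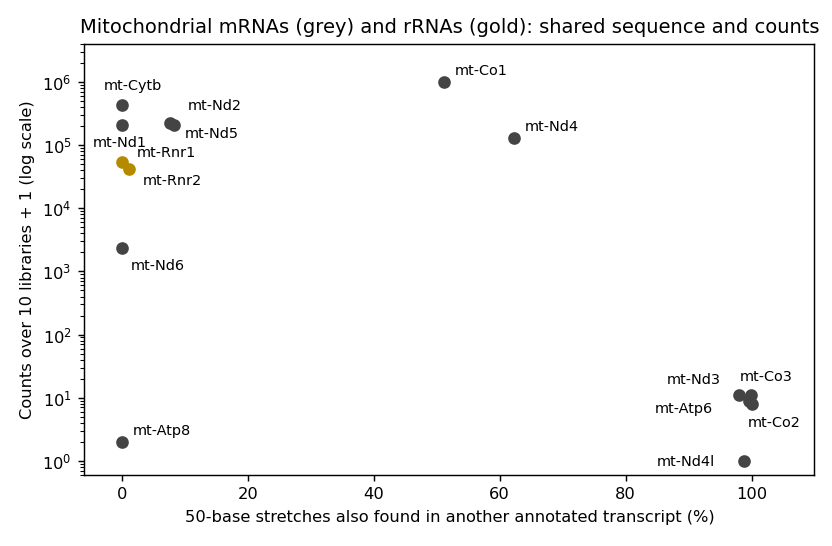
Share of each mitochondrial transcript's 50-base stretches that is found in another annotated transcript (horizontal axis, %) against its counts summed over the 10 libraries plus 1 (vertical axis, log scale), for 13 mRNAs (grey) and 2 rRNAs (gold). The 5 genes at 98.0% or more have 10 counts or fewer, and the genes at 62.2% or less other than mt-Atp8 have at least 2341. For mt-Atp8 (0% and 1 count), the chromosome 1 bases between Gm28661 and Gm10925 were not compared.

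Among the mRNAs that were measured, mt-Co1 led in every library. It encodes the catalytic subunit of complex IV. Per kilobase of transcript, WT means were 4401 CPM for mt-Co1, 2791 CPM for mt-Cytb, 1881 CPM for mt-Nd1, 1577 CPM for mt-Nd2, 981 CPM for mt-Nd5, 746 CPM for mt-Nd4 and 36.8 CPM for mt-Nd6. The last is the only mRNA read from the other strand, and its last bases overlap mt-Nd5, so without a stated strand setting reads from the shared bases cannot be told apart. The most abundant nuclear gene per kilobase, Atp5b, was at 704 CPM.

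The summed level of the 13 mitochondrial mRNAs, which rests almost wholly on the 7 measured ones, varied widely among WT fetuses. It was 16181, 23023, 20114, 13151 and 8864 CPM in WT replicates 1 to 5, and 18893, 18894, 20250, 16724 and 14818 CPM in Mir483Pat-KO replicates 1 to 5. All Mir483Pat-KO sums lay inside the WT range, and WT replicate 5 was the lowest of all. The WT mean was 16267 ± 5589 CPM and the Mir483Pat-KO mean 17916 ± 2143 CPM (SD, n = 5 each), a log2 ratio of 0.14, which is less than the spread within the groups (0.40 on the log2 scale). Without WT replicate 5 the log2 ratio was −0.01. As a share of all counts the sum was 0.868% to 2.24% in WT and 1.52% to 2.04% in Mir483Pat-KO.

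The mt-Co1 mRNA had the largest positive log2 fold change of the 97 oxidative phosphorylation genes tested. It was at 6963, 9088, 8134, 5866 and 3946 CPM in WT replicates 1 to 5 and at 8435, 8635, 9713, 8332 and 7518 CPM in Mir483Pat-KO replicates 1 to 5. The groups overlapped, with WT replicates 2 and 3 among the Mir483Pat-KO values and WT replicates 1, 4 and 5 below them. For mt-Co1 the log2 fold change was 0.33 ± 0.16 (SE, 95% interval −0.01 to 0.67, adjusted p = 0.244). Without WT replicate 5, the lowest library, it was 0.18, and it ran from 0.15 to 0.50 over the 22 alternative settings. For mt-Cytb, the mitochondrially encoded subunit of complex III, the value was 0.17 ± 0.15 (95% interval −0.15 to 0.48), and it ran from −0.04 to 0.36 over those settings, with 0.26 without WT replicate 2, 0.10 without WT replicate 4 and 0.04 without WT replicate 5.

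The 5 complex I mRNAs that were measured encode membrane subunits of the proton pump. Their log2 fold changes ran from −0.32 (mt-Nd1) to 0.02 (mt-Nd2), with a median of −0.09. The mt-Nd1 mRNA was at 1409, 3105, 2491, 1256 and 741 CPM in WT and at 1594, 1567, 1615, 1307 and 1109 CPM in Mir483Pat-KO. The Mir483Pat-KO libraries lay within the WT range, which spanned from 741 to 3105 CPM, and the 95% interval of the log2 fold change was −0.89 to 0.25. The value was −0.04 without WT replicate 2, −0.19 without WT replicate 3 and −0.52 without WT replicate 5, and over all 22 alternative settings it ran from −0.54 to 0.03. The widest interval was that of mt-Nd6, from −1.05 to 0.87.

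The 2 mitochondrial rRNAs, which form the core of the mitochondrial ribosome, are not the target of polyA selection. The small subunit rRNA, mt-Rnr1, was at 391, 697, 736, 357 and 327 CPM in WT and at 375, 282, 427, 351 and 262 CPM in Mir483Pat-KO. WT replicates 2 and 3 stood above all others, and the remaining 3 WT libraries lay among the Mir483Pat-KO values. Its log2 fold change was −0.56 ± 0.21 (SE, 95% interval −1.001 to −0.13, adjusted p = 0.121 in edgeR's test). The call changed with the fit: the adjusted p was 0.00341 with GC content and length offsets (log2 fold change −0.87) and 0.000138 without the low-count filter (−0.56), and its highest value over the alternative settings was 0.280. The large subunit rRNA, mt-Rnr2, had a log2 fold change of −0.15 (95% interval −0.61 to 0.30), and ran from −0.47 to 0.04 over the alternative settings, with 0.03 without WT replicate 3. The 22 tRNA genes had 0 to 55 counts each over all libraries and were not tested.

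**Figure D3:**
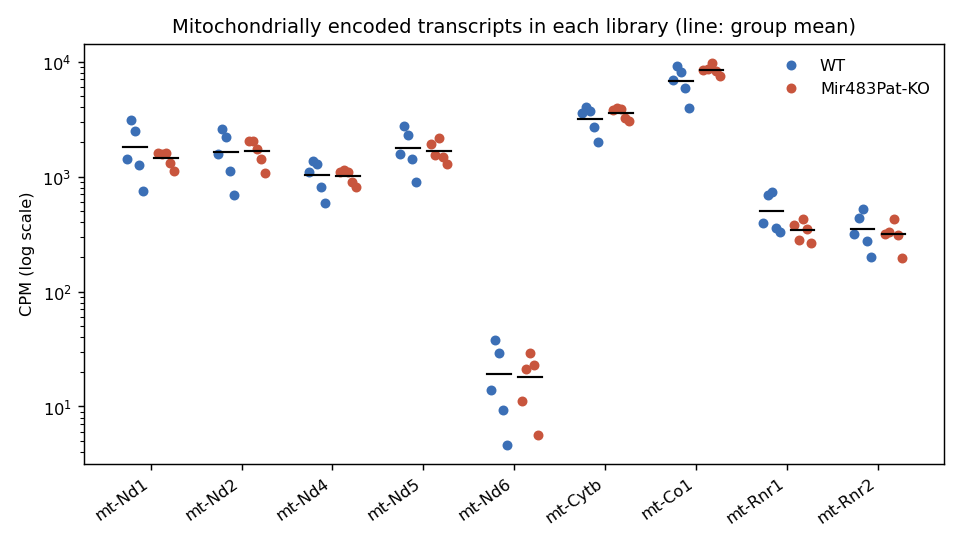
CPM (log scale) of the 7 measured mitochondrial mRNAs and the 2 rRNAs in each library, with WT in blue, Mir483Pat-KO in red, replicates 1 to 5 from left to right and a line at the group mean. The WT libraries spread more widely than the Mir483Pat-KO ones for mt-Co1, mt-Nd1 and mt-Rnr1, and the groups overlap for every transcript.

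The 98 nuclear genes together were at 9070, 9051, 8366, 8325 and 9176 CPM in WT replicates 1 to 5 and at 8095, 7890, 7953, 9008 and 8245 CPM in Mir483Pat-KO replicates 1 to 5. In these CPM, Mir483Pat-KO replicate 4 reached the WT level, and the other 4 lay below every WT library. The means were 8798 ± 416 CPM and 8238 ± 452 CPM (SD, n = 5 each), a log2 ratio of −0.09, or −0.14 without Mir483Pat-KO replicate 4 and −0.06 as a plain share of all counts. The spread within groups was 0.07 on the log2 scale. As a plain share of all counts, Mir483Pat-KO replicate 5 (0.848%) also lay above WT replicates 3 (0.824%) and 4 (0.840%).

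**Figure D4:**
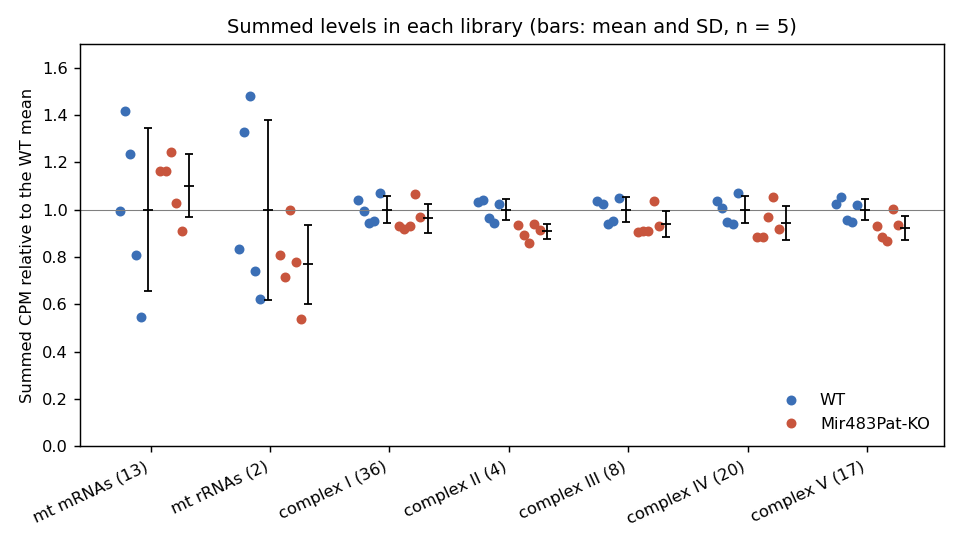
Summed CPM of the members of each group in each library, divided by the WT mean, with WT in blue, Mir483Pat-KO in red and bars for the mean and SD of 5 libraries; the number of summed genes is in brackets. The mitochondrial sums spread far more than the nuclear ones, and Mir483Pat-KO replicate 4, the fourth red point, is the highest of its group in complexes I to V.

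Complex I takes electrons from NADH, and its 36 nuclear genes encode most of its subunits. All 36 were tested, 24 had a negative log2 fold change, and the median was −0.06. The smallest p belonged to Ndufv3, an accessory subunit of the NADH-binding arm, at 51.7, 52.4, 51.5, 55.4 and 61.4 CPM in WT and at 50.2, 45.5, 44.7, 49.1 and 46.0 CPM in Mir483Pat-KO. The groups did not overlap, but WT replicate 3 and Mir483Pat-KO replicate 1 were close. Its log2 fold change was −0.21 ± 0.07 (SE, adjusted p = 0.0861). Ndufa6, the most abundant of the 36 per kilobase, was at −0.09 (95% interval −0.26 to 0.07). The core subunits Ndufs1 and Ndufv2, named after their values were seen like the other genes outside the naming rule, had log2 fold changes of 0.01 and 0.17.

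The 8 complex I assembly factors (Ndufaf1 to Ndufaf8), which help to build the complex without staying in it, had a median of 0.09, with 5 of 8 positive. Ndufaf6 was at 8.3, 6.5, 5.9, 6.2 and 7.1 CPM in WT and at 7.8, 9.0, 6.4, 10.2 and 8.4 CPM in Mir483Pat-KO, with overlapping groups and a log2 fold change of 0.30 (95% interval −0.00073 to 0.59, adjusted p = 0.227). The most abundant of them per kilobase, Ndufaf2, was at 0.15, and shares 64.1% of its 50-base stretches with an overlapping gene.

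Complex II, succinate dehydrogenase, also works in the citric acid cycle. Its 4 genes all had negative log2 fold changes, from −0.20 to −0.09, and none passed the test. Sdha, the catalytic flavoprotein subunit, was at 310, 316, 302, 289 and 310 CPM in WT and at 290, 272, 248, 259 and 265 CPM in Mir483Pat-KO. Only WT replicate 4 and Mir483Pat-KO replicate 1 overlapped. For Sdha the log2 fold change was −0.20 ± 0.06 (SE, adjusted p = 0.0832), and the adjusted p was 0.0135 by DESeq2 and 0.0458 without Mir483Pat-KO replicate 1. Within the lower range of the libraries' identification numbers alone Sdha was at −0.12 (adjusted p = 0.549). The most abundant per kilobase, Sdhd, a membrane anchor subunit, was at −0.09. The 4 genes summed to 732 ± 31.8 CPM in WT, against 665 ± 23.8 CPM in Mir483Pat-KO (SD, n = 5 each). The groups of sums did not overlap, by a margin of 689 CPM in WT replicate 4 against 688 CPM in Mir483Pat-KO replicate 4.

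Complex III passes electrons from ubiquinol to cytochrome c. Of its 8 genes, 7 had negative values, with a median of −0.10. Uqcr10, a small accessory subunit, was at 86.9, 70.6, 73.8, 82.8 and 91.7 CPM in WT and at 64.2, 61.7, 67.9, 80.8 and 75.6 CPM in Mir483Pat-KO. Mir483Pat-KO replicates 4 and 5 lay among the WT values, and the log2 fold change was −0.21 ± 0.09 (SE, adjusted p = 0.173). Uqcrh, the most abundant per kilobase, was at −0.07. Uqcrb was the one gene with a positive value, 0.09. The large core proteins Uqcrc1 and Uqcrc2 were at −0.06 each. Outside the symbol rule, Cyc1, the cytochrome c1 subunit of this complex, was at −0.18 and Cycs, cytochrome c itself, at −0.01, and neither passed the test.

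Complex IV, cytochrome c oxidase, was represented by 20 nuclear genes, of which 15 were tested, 12 of them with negative values and a median of −0.09. Cox5b had the smallest p, with 77.9 to 90.8 CPM in WT and 73.6 to 80.8 CPM in Mir483Pat-KO and a log2 fold change of −0.15 ± 0.06 (SE, adjusted p = 0.182). Cox4i1, the most abundant per kilobase, had a log2 fold change of −0.09 ± 0.07.

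Several complex IV subunits come in forms that differ between tissues, and the liver forms prevailed in both groups. Per kilobase, WT means were 314 CPM for Cox4i1 and 0.660 CPM for its hypoxia- and lung-associated relative Cox4i2, and Mir483Pat-KO means were 295 and 0.632 CPM. Cox6a1 was at 245 CPM per kilobase in WT, and Cox6a2, its heart and muscle form, at 0.270 CPM. Cox8a was at 209 CPM per kilobase in WT, and Cox8b, found in muscle and brown fat, had 1 count in all 10 libraries. Cox7a2 was at 179 CPM per kilobase in WT and 171 CPM in Mir483Pat-KO, its relative Cox7a2l at 60.2 and 58.6 CPM, and the heart and muscle form Cox7a1 at 6.55 and 4.33 CPM. Cox6b1 was at 237 CPM per kilobase in WT, and Cox6b2, known from testis, at 34.1 CPM. Ndufa4, a complex IV subunit despite its name, was at 213 CPM per kilobase in WT and 214 CPM in Mir483Pat-KO, and Ndufa4l2 at 66.1 and 58.2 CPM. None of these genes passed the test.

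Cox7a1 had the largest negative log2 fold change of the 97 genes, on few counts. It was at 2.8, 1.4, 2.6, 2.2 and 3.8 CPM in WT and at 2.4, 2.1, 1.5, 1.4 and 1.1 CPM in Mir483Pat-KO, 277 counts in all. WT replicate 2 lay among the lowest Mir483Pat-KO values. Its log2 fold change was −0.61 ± 0.27 (SE, 95% interval −1.18 to −0.04, adjusted p = 0.195). Over the 22 alternative settings it ran from −0.78 to −0.02, the latter within the lower range of the libraries' identification numbers alone (adjusted p = 0.986). The 6 markers of striated muscle summed to 1.07 to 2.76 CPM in WT and 1.64 to 2.68 CPM in Mir483Pat-KO, and none was abundant enough to be tested.

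Complex V makes ATP from ADP. Of its 17 nuclear genes 16 were tested, 11 with negative values and a median of −0.10. Atp5a1, the alpha subunit of the catalytic head, had the smallest p of all 97 genes. It was at 886, 926, 843, 815 and 857 CPM in WT and at 791, 702, 680, 769 and 770 CPM in Mir483Pat-KO, and the groups did not overlap. Its log2 fold change was −0.22 ± 0.07 (SE, 95% interval −0.37 to −0.08, adjusted p = 0.0672 in edgeR's test). The adjusted p was 0.00693 by DESeq2 and 0.0495 without Mir483Pat-KO replicate 1, and it reached 0.305 over the 22 alternative settings. With GC content and length offsets Atp5a1 was at −0.14 (adjusted p = 0.282). Its partner Atp5b, the beta subunit and the most abundant of the nuclear genes, was at 1318, 1424, 1275, 1299 and 1426 CPM in WT and at 1271, 1180, 1168, 1327 and 1267 CPM in Mir483Pat-KO, with a log2 fold change of −0.12 ± 0.07 (adjusted p = 0.324). The genes of the gamma and b subunits, Atp5c1 and Atp5f1, were at 0.04 and 0.03. The c-ring is encoded by 3 genes with the same mature protein, and Atp5g3, Atp5g1 and Atp5g2 were at −0.09, −0.14 and −0.11. Atp5s, coupling factor B, was at 0.24 (95% interval −0.08 to 0.57).

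The members not yet described that reached p under 0.05 before adjustment, named after their values were seen, were Ndufv1, Ndufa13, Ndufs7, Cox5a, Cox8a, Atp5d and Atp5o, with log2 fold changes from −0.23 to −0.18. The lower range of identification numbers held WT replicates 1 to 4 and Mir483Pat-KO replicates 1 and 2, and the upper range the rest. The 9 genes called with the range as a covariate were Ndufa13, Ndufs7, Uqcr10, Uqcr11, Uqcrq, Cox6a1, Cox8a, Atp5d and Atp5o, with log2 fold changes between −0.36 and −0.22. Within the lower range alone (4 WT and 2 Mir483Pat-KO libraries) none passed, where only 0.159% of all 14494 genes tested did, and the median of the nuclear genes was −0.12. In that range the nuclear sum was 8325 to 9070 CPM in WT and 7890 to 8095 CPM in Mir483Pat-KO. In the upper range it was 9176 CPM in the 1 WT library and 7953 to 9008 CPM in the 3 Mir483Pat-KO libraries.

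The nuclear fold changes moved with the base composition of the transcripts. The 88 genes were split by GC content into 3 ranges of about equal size. In the lowest range (37.0% to 48.4%), 13 of 30 had negative values and the median log2 fold change was 0.01. In the middle range 20 of 29 were negative, with a median of −0.09, and in the highest range (53.01% to 63.3%) 28 of 29 were negative, with a median of −0.11. All genes in the same ranges had medians of 0.09, −0.03 and −0.09. Spearman's rho between GC content and log2 fold change was −0.47 across the 88 genes, which share libraries and are not independent replicates. Across all genes, the correlation of a library's levels with GC content ran from −0.15 to 0.58 in WT, highest in replicate 5, and from −0.41 to 0.19 in Mir483Pat-KO. With offsets that remove each library's trend, the medians of the 3 ranges were −0.12, −0.08 and −0.05, with 22, 20 and 23 negative values. All genes in the same ranges then had medians of 0.016, 0.0056 and 0.0068. The median of the 88 genes stayed at −0.07.

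**Figure D5:**
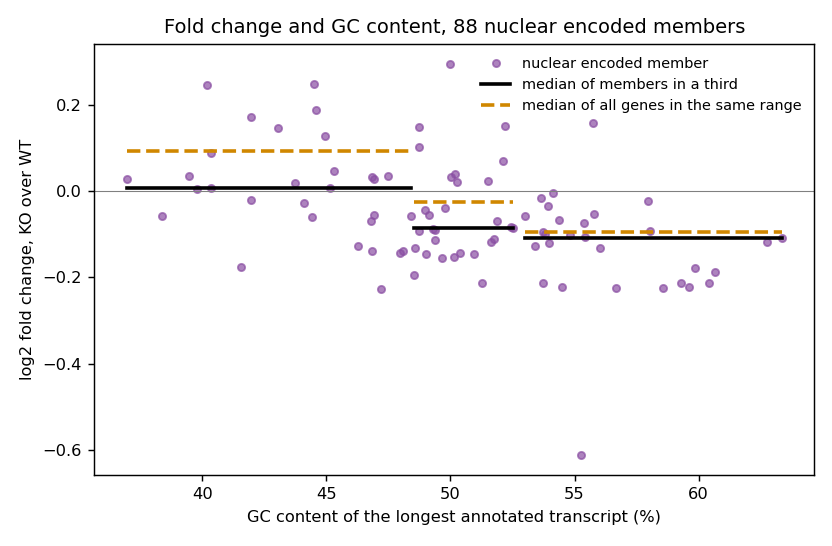
Log2 fold change (Mir483Pat-KO over WT, vertical axis) of the 88 nuclear encoded genes against the GC content of the longest annotated transcript (horizontal axis, %). Solid lines give the members' median in each GC range (0.01, −0.09 and −0.11) and dashed lines the median of all genes in the same GC range (0.09, −0.03 and −0.09).

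Values of cell type markers are given beside those of the members, and no list was tested as a whole. Of all genes tested, 5.19% passed. Of 11 erythroid markers tested 10 had positive log2 fold changes, with a median of 0.29. Among these, 2 passed the test, and Hbb-bs, an adult beta globin, was 1 of them. Their sum was 16502 to 21084 CPM in WT and 19326 to 27238 CPM in Mir483Pat-KO. Of 8 hepatocyte markers 7 were negative, with a median of −0.13, and Apoa1 passed, and their sum was 221196 to 248118 CPM in WT and 199045 to 228856 CPM in Mir483Pat-KO. Of 8 proliferation genes 6 were positive, with a median of 0.20, and Ccnb1 passed, with sums of 2317 to 2732 CPM in WT and 2743 to 3018 CPM in Mir483Pat-KO. None of the markers in these lists was at 0 counts. Of 10 myeloid and macrophage markers 5 were negative and 5 positive, with a median of −0.06, and Clec4f passed, lower in Mir483Pat-KO. Of 5 brown adipocyte markers 2 were tested, Plin5, which was lower and passed (−0.52), and Dio2, which did not (0.72, adjusted p = 0.311). Of 6 stellate and mesenchymal markers 5 were negative, with a median of −0.43, the largest in size of these lists, and sums of 307 to 652 CPM in WT and 307 to 486 CPM in Mir483Pat-KO. Of 6 endothelial markers 5 were negative, with a median of −0.16, and of 4 megakaryocyte markers 3, with a median of −0.17. No marker of these last 3 lists passed, the smallest adjusted p being 0.0511 among the stellate ones (edgeR's test). The part of these cell types in the members' values was not tested.

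Genes that control or surround the respiratory chain were taken from 6 lists outside the symbol rule. Of their 127 tested genes, 5 passed the test (3.94%), a smaller share than the 5.19% of all genes, so the 5 are given as single genes. Among the 10 tested regulators of mitochondrial biogenesis, Pprc1 was lower and Nrip1 higher. Pprc1, a coactivator related to PGC-1alpha, was at 63.8, 61.8, 55.5, 57.9 and 61.7 CPM in WT and at 50.4, 51.0, 44.2, 43.3 and 52.9 CPM in Mir483Pat-KO, with no overlap and a log2 fold change of −0.31 ± 0.07 (SE, adjusted p = 0.024). The call was lost without WT replicate 5 (adjusted p = 0.0504), Mir483Pat-KO replicate 3 (0.0519) or Mir483Pat-KO replicate 4 (0.0635), and with GC content and length offsets (0.0947). Nrip1, a corepressor of nuclear receptors, was at 20.8 to 26.8 CPM in WT and 27.0 to 34.4 CPM in Mir483Pat-KO, with a log2 fold change of 0.34 ± 0.09 (adjusted p = 0.0416). Its adjusted p was between 0.0524 and 0.0962 without any 1 of the 10 libraries other than WT replicate 3, and 0.0668 with GC content and length offsets. Of the best known regulators, Nrf1 was at 0.14, Gabpa at 0.17, Ppargc1a at −0.20 and Esrra at −0.35 (adjusted p = 0.0517).

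Among 29 tested genes that copy or transcribe the mitochondrial genome, Polrmt was lower and Primpol higher. Polrmt, the mitochondrial RNA polymerase, was at 19.98, 17.8, 17.2, 22.9 and 20.3 CPM in WT and at 13.5, 12.4, 14.3, 15.8 and 17.4 CPM in Mir483Pat-KO. Mir483Pat-KO replicate 5 overlapped WT replicate 3, and the log2 fold change was −0.42 ± 0.11 (SE, adjusted p = 0.0365). The call was lost without WT replicate 4 or 5 or without any 1 of Mir483Pat-KO replicates 1 to 4 (adjusted p of 0.0598 to 0.0861), and with GC content and length offsets (−0.26, adjusted p = 0.0957). Primpol, a primase and polymerase of the nucleus and mitochondria, was at 11.01 to 14.4 CPM in WT and 16.4 to 18.4 CPM in Mir483Pat-KO, with no overlap and a log2 fold change of 0.43 ± 0.09 (adjusted p = 0.0133). Tfam, which packages mitochondrial DNA and starts its transcription, was at 0.19 and did not pass. None of the 5 genes passed within the lower identification number range alone, a fit that called 23 of 14494 genes. Their log2 fold changes there were −0.24 for Pprc1, 0.39 for Nrip1, −0.59 for Polrmt, 0.48 for Primpol (adjusted p = 0.168) and −0.31 for Slc25a4 (0.208), an ADP/ATP carrier.

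Slc25a4, a carrier that exchanges the product of complex V for ADP, was the 1 gene to pass among 22 genes of the mitochondrial membrane and import. It was at 128, 126, 133, 107 and 134 CPM in WT and at 104, 96.2, 106, 98.1 and 98.8 CPM in Mir483Pat-KO. The groups did not overlap, with WT replicate 4 and Mir483Pat-KO replicate 3 next to each other, and the log2 fold change was −0.32 ± 0.07 (SE, adjusted p = 0.0177). None of the 16 citric acid cycle genes (median −0.04) and none of the 48 tested assembly factors outside the rule (median 0.05) passed. The 77 tested genes of the mitochondrial ribosome had a median of −0.02 and 0 calls, and the 91 of the cytosolic ribosome a median of 0.05 and 1 call. No difference between these gene groups and oxidative phosphorylation was tested.

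Short motifs near the start sites, which the symbol rule did not use, were in 34 of the nuclear genes examined and absent from 40. RefSeq promoters (GRCm38.p6, 250 bases before to 50 after the start) matched 74 of the 88 genes tested. The NRF1 core GCGCATGC, on either strand, was in 16.2% of them and in 3.05% of all 27025 genes with a promoter sequence. The ETS-type motif CCGGAAG, as bound by GABPA, was in 24.3% against 9.93%, and the YY1 motif AAGATGGC in 14.9% against 3.19%. The median log2 fold change was −0.08 over the 34 genes with any of the 3 and −0.06 over the 40 with none. The stretches below, which lie upstream of the start site on the minus strand, show the matches in capitals: overlapping NRF1 cores on both strands in Cox6a1 (chr5:115349073-115349132), an NRF1 core in Ndufa6 (chr15:82354327-82354386) and an ETS-type motif in Sdhd (chr9:50603850-50603909).
Cox6a1: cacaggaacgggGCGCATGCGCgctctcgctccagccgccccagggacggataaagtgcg
Ndufa6: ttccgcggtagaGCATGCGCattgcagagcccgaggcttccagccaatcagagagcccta
Sdhd: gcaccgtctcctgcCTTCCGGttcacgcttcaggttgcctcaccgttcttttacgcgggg
A match is a run of letters and was not tested for binding.

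Of the 10 nuclear genes that were not tested, 5 were tissue-restricted complex IV genes with 0 to 62 counts (Cox4i2, Cox6a2, Cox7b2, Cox8b and Cox8c), 4 were processed pseudogenes with 2 to 14 counts, and 1 was a second Atp5o entry with 0 counts. Among the 88 tested, 37 shared no 50-base stretch with another annotated gene, and 6 shared more than 25%, among them Atp5o (41.6%) and Atp5g2 (38.3%), whose counts are less certain for that reason. Ndufb1-ps, left out by the symbol rule, had 4350 counts, with a WT mean of 33.0 ± 4.55 CPM and a Mir483Pat-KO mean of 34.4 ± 4.18 CPM (SD, n = 5 each).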

How the data were processed

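The authors made polyA libraries with a stranded TruSeq kit, sequenced 50-base paired ends and aligned the reads with STAR to GRCm38. They deposited raw counts per Ensembl gene, not normalized. The strand setting and the rule for reads with several matches are not given in the sources used here. Symbols, positions, transcript lengths and GC content came from GENCODE M21 (GRCm38), which matched 55141 of 55401 genes.

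Genes kept by filterByExpr were scaled by TMM and tested with edgeR 4.0.16 (R 4.3.3, quasi-likelihood F-test, no covariate), adjusted by Benjamini-Hochberg over 14098 genes. CPM used the TMM-scaled library sizes, and levels per kilobase the longest principal transcript. Intervals used the fit's SE and degrees of freedom. Floors of 3 counts cover counting error only. On simulated counts of this comparison (13966 genes, 200 of those above a set level changed 2-fold), 96.5% were recovered and 7.21% of calls were false. Smaller changes, such as those of most members, were not simulated.

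Alternatives were RLE, scaling without mitochondrial genes, DESeq2 1.42.0, limma-voom 3.58.1, a robust fit, other count filters, the replicate block, the identification number range, GC content and length offsets, and leaving out each library. Named were all mitochondrial mRNAs and rRNAs, the complex IV paralogs, per group the gene of smallest p and of highest level per kilobase, the extreme fold changes, and the list genes that passed. The members and lists were chosen with earlier results of these data known. Figures were drawn with matplotlib. Some single-gene results are not reported here.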

Additional observations from a re-analysis of the deposited data

Results flagged for a closer look

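Among 84 groups of 5 libraries checked, made up of the summed levels and the named genes, 3 had 1 library far from the other 4 by Dixon's ratio of gap to range (critical value 0.71), and chance flags about 1 group in 20. Mir483Pat-KO replicate 4 was highest for the summed complex III genes, at 1027 CPM against 923 CPM for the next library, and for Cox6b1, at 150.5 CPM against 130.3 CPM. WT replicate 5 was highest for Cox6a1, at 154 CPM against 139 CPM.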

How the results depend on the processing

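No replicate or setting turned the median of the 88 nuclear genes positive: it ran from −0.13 to −0.05 when each library was left out, and from −0.12 to −0.07 under the other alternatives. The median of the mitochondrial mRNAs ran from −0.17 to 0.26 without single libraries and from −0.32 to 0.21 otherwise, always within 0.50 (1 SD between libraries) of the main value. The count of nuclear genes called lower was 0 in the main test, 2 by DESeq2, 9 with the identification number range as covariate, 1 with GC content and length offsets, and 0 to 2 without single libraries. The same fits called 2.76%, 4.32%, 3.85%, 2.43% and 1.35% to 3.34% of all genes lower, with 3.34% in the fit without Mir483Pat-KO replicate 1 that gave the 2. Of mitochondrial genes, 1 was called higher (mt-Co1) and 1 lower (mt-Rnr1) without the low-count filter, where 4.43% of all genes were called, and 1 lower (mt-Rnr1) with GC content and length offsets, where it was also the 1 gene past a fold change of 1.5. Equal replicate numbers were not treated as pairs in the main test. Deviations of same-numbered libraries correlated at −0.05 to 0.26 across genes, with a mean of 0.09, against a mean of −0.02 for other pairs. Whether the numbers pair the samples was not tested. With the replicate block, 1 nuclear gene (Ndufv1) and 1 mitochondrial gene (mt-Rnr1) were called lower, 2.06% of the members tested, beside 9.49% of all genes called in either direction. With the replicate block and GC content and length offsets, 3 nuclear (Atp5f1, Cox5a, Cox7c) and 3 mitochondrial genes (mt-Rnr1, mt-Rnr2, mt-Nd4) were lower, 6.19% of the members tested, beside 5.36% of all genes called in either direction, and 1 passed a fold change of 1.5. The cause of these changes was not tested. Of 31 named members tested, 21 kept the sign of their fold change in every alternative and 10 did not, among them mt-Nd1, mt-Nd2, mt-Nd4, mt-Nd5, mt-Nd6 and mt-Cytb. Cox7a1 rests on 277 counts, mt-Nd6 varied widely between libraries, and the 6 mitochondrial mRNAs with 10 counts or fewer could not be compared.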

Other observations

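Ratios between mitochondrial transcripts of the same library do not depend on how libraries were scaled. Of the 36 ratios among the 7 measured mRNAs and 2 rRNAs, 6 had groups that did not overlap. The 36 are built from 9 genes and are not independent, and no share over ratios of other genes was computed. For single genes, groups did not overlap for 3.26% (lower) and 3.34% (higher) of all genes tested. The ratios were examined after the values of the genes were seen and were not tested. Counts of mt-Co1 over those of mt-Rnr1 were 17.8, 13.05, 11.1, 16.4 and 12.1 in WT replicates 1 to 5 and 22.5, 30.6, 22.7, 23.8 and 28.7 in Mir483Pat-KO replicates 1 to 5. All Mir483Pat-KO ratios were above the highest WT ratio. Counts of mt-Nd4 over those of mt-Co1 were 0.138 to 0.157 in WT and 0.107 to 0.131 in Mir483Pat-KO. Of the 6 ratios, 3 involved mt-Rnr1, and mt-Co1 and mt-Nd4 both share a large part of their sequence with nuclear copies. As a share of the mitochondrial mRNA counted, mt-Co1 made up 39.5% to 44.6% in WT and 44.6% to 50.7% in Mir483Pat-KO, with WT replicate 4 and Mir483Pat-KO replicate 1 next to each other.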
